A study of Mus musculus with 5 samples.

Results

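The genes described here are 10 listed together as airway defence genes, followed by RNA sequencing of whole mouse lung: Bpifa1, Bpifb1, Reg3g, Scgb3a1, Scgb3a2, Muc5b, Muc5ac, Lcn2, Pigr and Prss22. They were taken by symbol, and all 10 were found among the 21590 genes of each of the authors' 4 comparison tables. The lungs came from wild type mice and from mice lacking Cldn4, the gene for claudin-4, which seals the junctions between epithelial cells, all on a mixed background of 129S6, C57BL/6 and BALB/c. The 5 groups were WT no VILI and Cldn4 KO no VILI, whose lungs were taken without ventilation, and WT VILI, Cldn4 KO VILIlow and Cldn4 KO VILIhigh, which had 2 h of ventilation at 40 cmH2O. VILI stands for ventilator-induced lung injury. Cldn4 KO VILIlow lungs had injury like that of ventilated wild type and Cldn4 KO VILIhigh lungs had more, so these knockout groups were formed by the outcome of ventilation. The design text gives duplicates, while the tables hold no value per library, so depth and replicate spread are unknown here, and nothing says whether the duplicates were separate animals.

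The fluid over the airway epithelium is made by club, goblet and gland cells, and cilia move it towards the throat. Gel-forming mucins (Muc5b, Muc5ac) give it its body. Small proteins dissolved in it bind bacterial lipids, cell walls or iron carriers, and the receptor Pigr brings IgA from the tissue into it. Several of these genes are known to be switched on by inflammatory cytokines. Pigr is a membrane protein whose outer part is released, and the other genes code for secreted proteins.

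The 10 genes were chosen on the fold changes and adjusted p-values of these same 4 tables, so both are given as a description and are no test of the choice. Group levels were rebuilt as CPM, read counts scaled to library size, out of the fold change and the mean log2 CPM that the authors deposited per gene. Genes whose mean log2 CPM reached 1 in a table are called expressed genes for that table. They carry no error of their own. A gene with a deposited fold change of 0 at the lowest abundance stood at 0.238 to 0.387 CPM, depending on the table, and levels near or under that cannot be told from no reads. CPM is not scaled to transcript length, so levels were compared between groups and not between genes. In whole lung, more cells of a type and more RNA per cell cannot be told apart.

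The general checks were as follows. Cldn4 stood at 8.98 CPM in WT no VILI and 139.7 CPM in WT VILI, and at 0.0212 to 0.14 CPM in the 3 knockout groups. Lung identity was present throughout, with the lung epithelial factor Nkx2-1 at 126 to 244 CPM. The female transcript Xist stood at 890 and 505 CPM in the unventilated WT and KO groups and at 2.56 to 6.13 CPM in the ventilated groups, while the Y-linked Ddx3y had 90.7 to 115 CPM in ventilated lungs against 0.0984 (WT) and 0.421 CPM (KO) without ventilation. Sex and ventilation therefore cannot be told apart in any comparison of ventilated with unventilated lungs below. The median log2 fold change of the expressed genes lay between -0.02 and 0.01 in the 4 tables.

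Sequence upstream of the start site is shown for the genes that stood highest in Cldn4 KO VILIhigh lungs relative to WT VILI, so that the letters shared between them can be seen. RefSeq promoter sequences of build GRCm38.p6 were used for 6 of the 10 genes, in 7 windows since Bpifb1 has 2 start sites. Each line gives the 250 bases before the start, 5′ to 3′ on the gene's strand. Capitals mark matches to any of 6 motifs: the TATA box TATAAA, the AP-1 motif TGANTCA, the STAT motif TTCNNNGAA, the forkhead motif TATTTAC, a second forkhead motif, TGTTTAC, and the NF-kB consensus, named only. Both strands were searched, and no motif's match overlapped that of another. The motifs were picked with these sequences in view.
Reg3g, chr6:78468875-78469124, minus strand: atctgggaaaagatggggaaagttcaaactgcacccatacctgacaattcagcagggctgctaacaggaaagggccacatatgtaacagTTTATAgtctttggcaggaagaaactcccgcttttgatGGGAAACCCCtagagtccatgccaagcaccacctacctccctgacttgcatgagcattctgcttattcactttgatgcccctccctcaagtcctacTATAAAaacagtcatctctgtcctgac
Bpifa1, chr2:154142630-154142879, plus strand: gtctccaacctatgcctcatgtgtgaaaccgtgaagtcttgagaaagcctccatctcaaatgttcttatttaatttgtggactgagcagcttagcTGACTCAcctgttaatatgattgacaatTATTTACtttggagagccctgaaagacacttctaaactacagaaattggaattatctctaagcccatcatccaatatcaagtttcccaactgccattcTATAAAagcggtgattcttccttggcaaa
Bpifb1, first start, chr2:154190568-154190817, plus strand: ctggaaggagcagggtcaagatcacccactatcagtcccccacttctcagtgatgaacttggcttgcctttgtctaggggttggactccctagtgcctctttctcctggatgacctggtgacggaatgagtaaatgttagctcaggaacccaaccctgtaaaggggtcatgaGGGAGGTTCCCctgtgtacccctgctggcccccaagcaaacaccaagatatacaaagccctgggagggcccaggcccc
Bpifb1, second start, chr2:154200130-154200379, plus strand: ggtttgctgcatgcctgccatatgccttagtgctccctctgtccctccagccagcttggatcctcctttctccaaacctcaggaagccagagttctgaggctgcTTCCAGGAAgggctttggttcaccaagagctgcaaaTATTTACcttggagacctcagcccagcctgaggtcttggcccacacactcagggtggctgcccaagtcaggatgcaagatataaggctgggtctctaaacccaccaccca
Scgb3a1, chr11:49663345-49663594, plus strand: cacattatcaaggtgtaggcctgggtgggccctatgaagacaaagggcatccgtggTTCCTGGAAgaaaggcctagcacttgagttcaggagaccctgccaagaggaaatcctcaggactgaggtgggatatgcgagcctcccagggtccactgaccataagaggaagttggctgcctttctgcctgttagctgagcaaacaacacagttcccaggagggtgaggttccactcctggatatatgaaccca

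The Reg3g window held a TATA match from 27 to 22 bases before the start, another on the minus strand from 161 to 156, and an NF-kB match on both strands from 123 to 114. Bpifa1 had a TATA match from 29 to 24, a forkhead TATTTAC from 127 to 121 and an AP-1 match from 155 to 149. Bpifb1 had overlapping NF-kB matches on both strands, from 78 to 68 before the first start, and at the second start a TATTTAC from 110 to 104 and a STAT match from 146 to 138. In Scgb3a1 the match was to STAT, from 194 to 186. The windows of Pigr and Lcn2 held none of the 6 motifs, which says only that these letters are not there. TATTTAC was thus in 2 of the 7 windows, and in 2.73% of all 32851 promoters searched over the same length. The shares of all promoters were 12.4% for TATAAA, 6.75% for AP-1, 7.02% for STAT, 3.17% for TGTTTAC and 7.25% for NF-kB. STAT, NF-kB and the TATA box were each in 2 of the 7 windows as well. AP-1 was in 1 and the second forkhead motif in 0. The motifs were picked with these sequences in view, so no enrichment is read from these counts. A match is a description of letters and not a measured binding site.

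All but Lcn2, 9 of the 10, had their highest rebuilt level in Cldn4 KO VILIhigh. In the authors' deposited table of that group against WT VILI, all 10 fold changes were above 0, with a median of 1.53 on the log2 scale against 0 for the expressed genes. An adjusted p of at most 0.05 was given there to 5 of the 10, Reg3g, Bpifa1, Bpifb1, Muc5b and Pigr, all higher. Among all 21590 genes 1.13% were called higher in that table and 1.56% in either direction. In Cldn4 KO VILIlow against WT VILI, 0 of the 10 were called (edgeR, authors' deposited table), 1 (Scgb3a2, lower) had an unadjusted p under 0.05, and the median was -0.10. The share of all genes called there was 0.973%, with 0.676% higher and 0.296% lower, and 0.435% were called lower in the high-injury table.

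**Figure D1:**
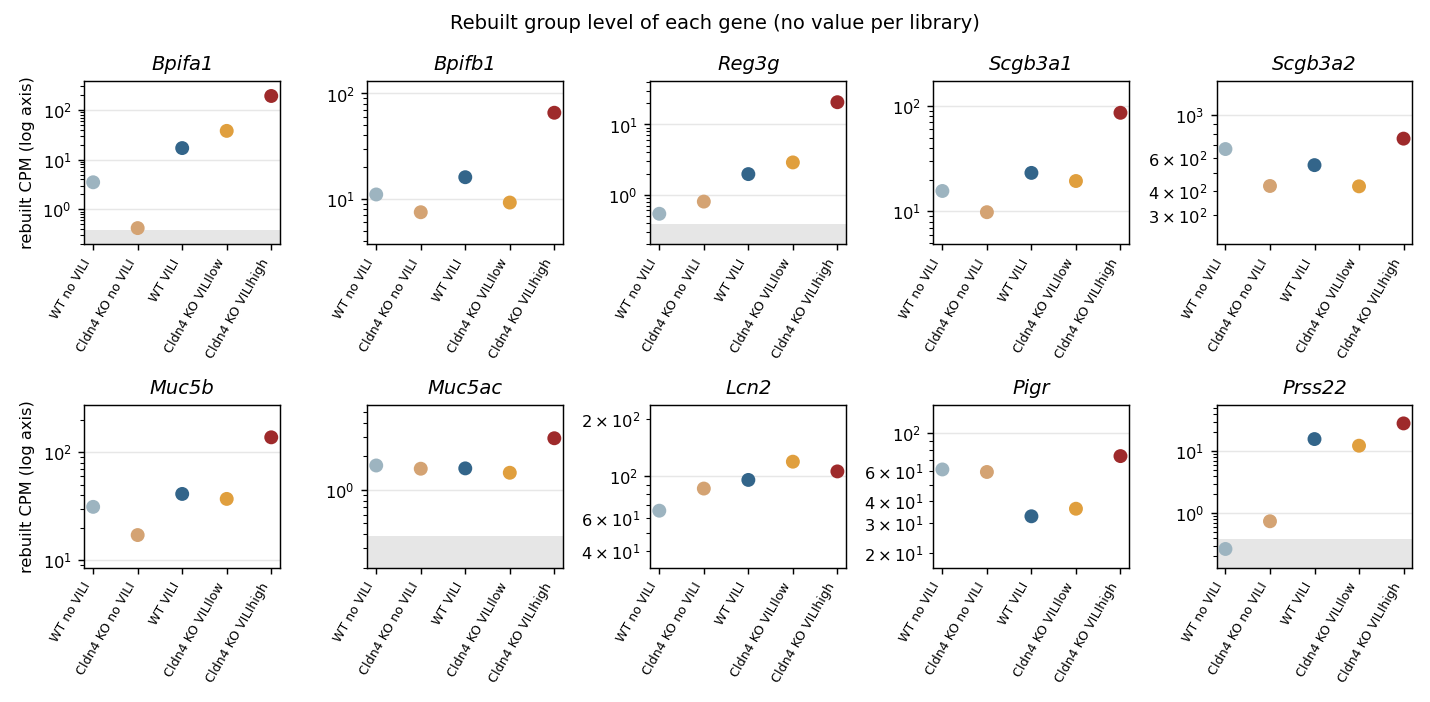
Rebuilt level of each of the 10 genes in the 5 groups, in CPM on a log axis with its own range per gene. Each point is 1 group level with no error, and the grey band is the range in which genes with no detectable reads lie. All genes but Lcn2, 9 of 10, are highest in Cldn4 KO VILIhigh, and Lcn2 is highest in Cldn4 KO VILIlow.

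Bpifa1 and Bpifb1 belong to the BPI fold family, whose members bind bacterial lipids, and they are close neighbours on chromosome 2. Bpifa1, also called SPLUNC1, coats upper and large airways and limits sodium uptake by the epithelium. Its rebuilt level was 3.49 CPM in WT no VILI, 0.417 in Cldn4 KO no VILI, 17.0 in WT VILI, 37.8 in Cldn4 KO VILIlow and 190.5 in Cldn4 KO VILIhigh. The unventilated knockout was thus near the floor of detection and the high-injury knockout at the top, with ventilated wild type between them. In the authors' deposited tables, Bpifa1 fell by 3.14 on the log2 scale in Cldn4 KO no VILI against WT no VILI (edgeR, adjusted p = 0.0265), a fitted value against a level near the floor. It rose by 3.61 in Cldn4 KO VILIhigh against WT VILI in the authors' deposited table (edgeR, adjusted p = 6.58e-05). Neither 2.29 in WT VILI against WT no VILI nor 1.28 in Cldn4 KO VILIlow against WT VILI was called (authors' deposited tables, edgeR adjusted p = 0.111 and 1).

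Bpifb1, the long family member, did not share the stepwise order of its neighbour. It stood at 10.99 CPM in WT no VILI, 7.45 in Cldn4 KO no VILI, 16.0 in WT VILI, 9.21 in Cldn4 KO VILIlow and 65.6 in Cldn4 KO VILIhigh. High-injury knockout lungs were apart from the other 4 groups, which lay within 7.45 to 16.0 CPM. The authors' deposited table gave a log2 fold change of 2.17 in Cldn4 KO VILIhigh against WT VILI (edgeR, adjusted p = 0.00272). In the other 3 authors' deposited tables its values were -0.54, 0.54 and -0.69, with adjusted p from 0.857 to 1 (edgeR). Of 15 other BPI fold genes measured, 3 were expressed genes of the high-injury table, and none was called there (edgeR, 0 with an unadjusted p under 0.05). Bpifa5, which lies between Bpifa1 and Bpifb1, was at the floor in all 5 groups. In WT VILI against WT no VILI, Lbp, which hands endotoxin to its receptor, rose by 0.43, and Bpifa2 passed from a level under the floor, 0.0336 CPM, to 1.38 CPM (authors' deposited table, edgeR adjusted p = 0.0413 and 0.0366).

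Reg3g encodes a lectin that binds the cell wall of Gram-positive bacteria. Its level was 0.537 CPM in WT no VILI, 0.8 in Cldn4 KO no VILI, 1.97 in WT VILI, 2.88 in Cldn4 KO VILIlow and 20.7 in Cldn4 KO VILIhigh. Both unventilated groups were near the floor, and the high-injury level was well above the other ventilated groups. In the authors' deposited table it rose by 3.86 on the log2 scale in Cldn4 KO VILIhigh against WT VILI (edgeR, adjusted p = 1.07e-07), rank 6 by size among the rises of 13724 expressed genes. Bpifa1 held rank 10 among those rises. The other 3 fold changes of Reg3g were 0.35, 1.87 and 0.94, none called (authors' deposited tables, edgeR adjusted p = 1, 0.399 and 1). The other 6 Reg genes listed, among them Reg3b, its close relative, were expressed genes in no table, and none was called in any authors' deposited table (edgeR, 0 with an unadjusted p under 0.05). How reads shared between such relatives were counted is not stated.

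Scgb3a1 and Scgb3a2 code for secretoglobins, small proteins of secretory cells. Scgb3a1 stood at 15.6 CPM in WT no VILI, 9.82 in Cldn4 KO no VILI, 23.2 in WT VILI, 19.4 in Cldn4 KO VILIlow and 86.0 in Cldn4 KO VILIhigh. The order of its 5 levels was that of Muc5b. The log2 fold change in Cldn4 KO VILIhigh against WT VILI was 2.00, just outside the threshold (authors' deposited table, edgeR adjusted p = 0.0553). Benjamini-Hochberg adjustment of the authors' deposited p over the expressed genes gave 0.0362 (edgeR). The remaining authors' deposited tables had -0.66, 0.57 and -0.16, none called (edgeR, adjusted p from 0.86 to 1).

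Scgb3a2, a club cell product, had the narrowest range of the 10. It stood at 666 CPM in WT no VILI, 427 in Cldn4 KO no VILI, 549 in WT VILI, 425 in Cldn4 KO VILIlow and 755 in Cldn4 KO VILIhigh. The low-injury ventilated knockout and the unventilated knockout were the lowest, at nearly the same level. Scgb3a2 fell by 0.68 in Cldn4 KO no VILI against WT no VILI (authors' deposited table, edgeR adjusted p = 0.000275). The fold changes were -0.44 in Cldn4 KO VILIlow and 0.39 in Cldn4 KO VILIhigh against WT VILI, neither called in the authors' deposited tables (edgeR adjusted p = 0.582 and 0.63). Scgb1a1, the main club cell secretoglobin, has a deposited fold change of exactly 0 in all 4 tables, so its response could not be read.

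Muc5b and Muc5ac lie side by side on chromosome 7. Muc5b, the gel mucin that airway clearance in mice depends on, stood at 31.2 CPM in WT no VILI, 17.1 in Cldn4 KO no VILI, 41.1 in WT VILI, 37.0 in Cldn4 KO VILIlow and 137 in Cldn4 KO VILIhigh. Only the high-injury group was far from the rest. Muc5b rose by 1.80 on the log2 scale in Cldn4 KO VILIhigh against WT VILI (authors' deposited table, edgeR adjusted p = 0.0118). The values in the other authors' deposited tables were -0.85, 0.40 and -0.10, with adjusted p from 0.684 to 1 (edgeR).

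Muc5ac, the mucin of allergic goblet cell change, was low in every group. Its levels were 1.65 CPM in WT no VILI, 1.55 in Cldn4 KO no VILI, 1.56 in WT VILI, 1.42 in Cldn4 KO VILIlow and 2.90 in Cldn4 KO VILIhigh. The fold change of 0.83 in Cldn4 KO VILIhigh against WT VILI was not called in the authors' deposited table (edgeR, adjusted p = 1). A value of exactly 0 was deposited for Cldn4 KO no VILI against WT no VILI, and nothing is read from it. Tollip, the gene next to Muc5b, was at 144 to 179 CPM in every group and not called in any authors' deposited table (edgeR).

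Lcn2 encodes lipocalin-2, which takes up bacterial iron carriers and is made by epithelium and stored in neutrophil granules. Levels were 65.6 CPM in WT no VILI, 85.9 in Cldn4 KO no VILI, 95.4 in WT VILI, 119 in Cldn4 KO VILIlow and 106 in Cldn4 KO VILIhigh. All ventilated groups stood above both unventilated ones, with the low-injury knockout highest. Lcn2 rose by 0.54 in WT VILI against WT no VILI (authors' deposited table, edgeR adjusted p = 0.00373), and the other authors' deposited tables had 0.41, 0.34 and 0.17, none called (edgeR). Neutrophil markers moved with ventilation by far more: 12 of 14 were called higher in WT VILI in the authors' deposited table (edgeR), with Ngp at 4.14 and Il1r2 at 5.89, and their summed level went from 177 to 698 CPM. In Cldn4 KO VILIlow and Cldn4 KO VILIhigh that sum was 899 and 1268 CPM, with Lcn2 at 119 and 106 CPM. The part of neutrophils in the Lcn2 level was not tested.

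Pigr carries IgA across the epithelium. It was the 1 gene of the 10 called lower with ventilation in wild type lungs, from 61.4 CPM in WT no VILI to 32.6 in WT VILI. It stood at 59.4 CPM in Cldn4 KO no VILI, 36.2 in Cldn4 KO VILIlow and 73.6 in Cldn4 KO VILIhigh. The high-injury knockout was thus back at or above the unventilated levels. In the authors' deposited tables Pigr fell by 0.91 in WT VILI against WT no VILI and rose by 1.26 in Cldn4 KO VILIhigh against WT VILI (edgeR, adjusted p = 0.0071 and 0.00358). Its values in Cldn4 KO no VILI against WT no VILI (-0.03) and in Cldn4 KO VILIlow against WT VILI (0.23) were not called in the authors' deposited tables (edgeR, adjusted p = 1 for each).

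The IgA chain partner went another way. Jchain, the joining chain of IgA that Pigr binds, stood at 44.5 CPM in WT no VILI and 53.0 in WT VILI, and at 206, 254 and 295 CPM in Cldn4 KO no VILI, Cldn4 KO VILIlow and Cldn4 KO VILIhigh. It was therefore higher in every knockout group, ventilated or not, with log2 fold changes of 2.24, 2.31 and 2.54 in the authors' deposited tables (edgeR, adjusted p = 1.13e-17, 2.16e-08 and 3.04e-14). Of 11 measured genes of IgA production and transport, Jchain included, 2 were called higher and 0 lower in Cldn4 KO VILIhigh against WT VILI. The second was the plasma cell gene Mzb1 at 1.26 (authors' deposited table, edgeR adjusted p = 0.0387). In Cldn4 KO VILIlow against WT VILI 1 was higher, Jchain, and 0 lower. In Cldn4 KO no VILI against WT no VILI 1 was higher, Jchain, and 1 lower, Tnfrsf13c at -1.55. In WT VILI against WT no VILI 0 were higher and 2 lower, Tnfrsf13b at -2.63 and Tnfrsf13c at -1.13 (authors' deposited tables, edgeR).

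Prss22 encodes a tryptase-like serine protease of airway epithelium. It was near or under the floor in unventilated lungs, at 0.264 CPM in WT no VILI and 0.739 in Cldn4 KO no VILI. After ventilation it stood at 15.6 CPM in WT VILI, 12.2 in Cldn4 KO VILIlow and 28.0 in Cldn4 KO VILIhigh. Every ventilated group thus stood far above both unventilated groups. Prss22 rose by 5.89 in WT VILI against WT no VILI (authors' deposited table, edgeR adjusted p = 4.16e-23), a fitted value against a group at the floor and no bound. It was rank 5 by size among the rises of 13801 expressed genes. The values against WT VILI were -0.18 in Cldn4 KO VILIlow and 1.00 in Cldn4 KO VILIhigh, not called in the authors' deposited tables (edgeR, adjusted p = 1 and 0.803). The next proteases on chromosome 17, Prss30 and Prss27, stayed between 0.118 and 1.11 CPM in all groups.

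**Figure D2:**
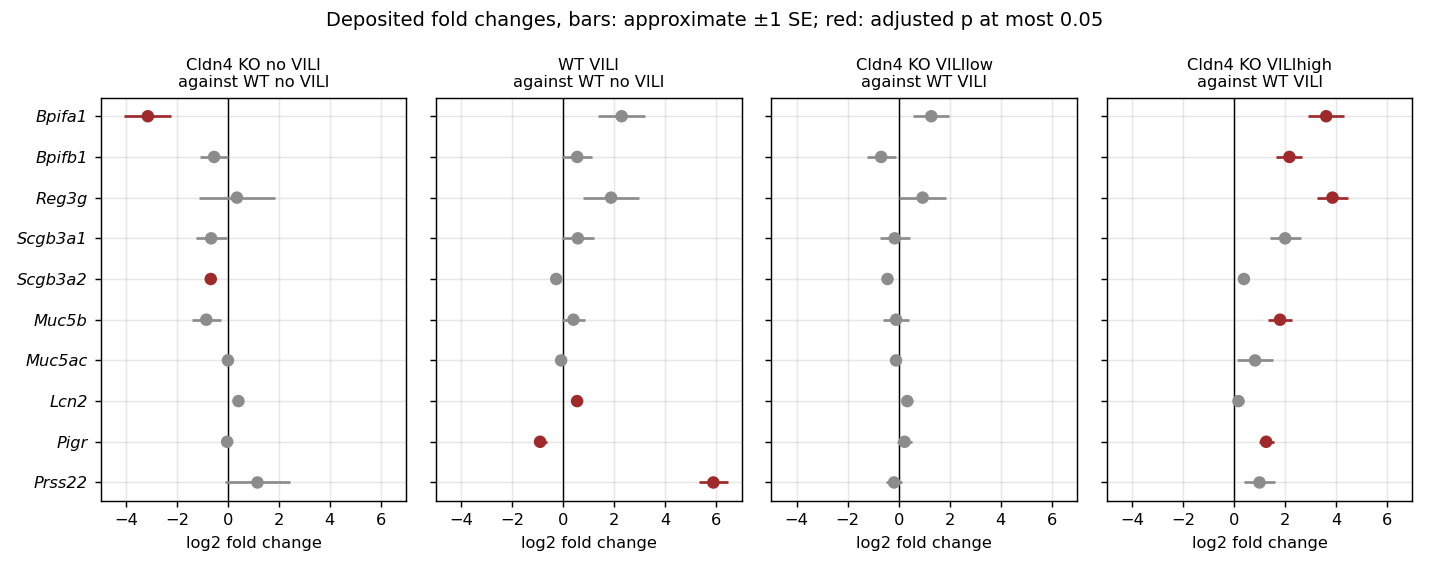
Log2 fold change of each gene in the authors' 4 deposited tables, with horizontal bars of 1 approximate standard error to each side where one could be calculated and red for an adjusted p of at most 0.05. Calls are 2 lower in Cldn4 KO no VILI, 2 higher and 1 lower in WT VILI, 0 in Cldn4 KO VILIlow and 5 higher in Cldn4 KO VILIhigh.

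By comparison, the calls fell as follows. In Cldn4 KO no VILI against WT no VILI, 2 of the 10 were lower (Bpifa1 and Scgb3a2) and 0 higher in the authors' deposited table (edgeR; 1 higher and 2 lower with an unadjusted p under 0.05). Over all genes 3.36% were called in that table, 1.45% higher and 1.92% lower. In WT VILI against WT no VILI, 2 were higher (Prss22 and Lcn2) and 1 lower (Pigr), where 9.09% of all genes were called, 4.85% higher and 4.23% lower. The genes called with ventilation in wild type and the genes called with high injury in knockouts shared 1 name, Pigr, with opposite signs. These comparisons share WT VILI, so no overlap is read from them.

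No table compared the knockout groups with each other, so differences were formed from the deposited fold changes, with no test. High-injury minus low-injury knockout gave a median of 1.54 over the 10 genes on the log2 scale, against -0.01 for the 13549 genes compared. Those 13549 were expressed genes of both ventilated knockout tables, which Muc5ac was not. Of the 10 genes 9 were higher and 1, Lcn2, lower. A difference of at least 1 was seen in 7 of the 10, where 1.1% of all genes reached it. The differences, with an approximate standard error calculated back from the deposited p, were 2.92 ± 1.1 for Reg3g, 2.86 ± 0.76 for Bpifb1, 2.34 ± 1.00 for Bpifa1 and 2.16 ± 0.85 for Scgb3a1. Muc5b was at 1.91 ± 0.69, Prss22 at 1.18 ± 0.69, Pigr at 1.03 ± 0.42 and Scgb3a2 at 0.83 ± 0.28. Lcn2 was at -0.16 ± 0.30, an approximate 95% interval of -0.75 to 0.42, and Muc5ac at 0.93 with no error to be had. The WT VILI group is common to both terms and its variance was counted for each, which makes these errors too large on that count. What spread the deposited p-values rest on is not given. Whether the errors are too large or too small for differences between animals therefore cannot be said.

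Against unventilated knockouts, formed by adding the deposited fold changes through wild type, all 10 genes were above 0 in the high-injury group, with a median of 3.14, and 7 of 10 in the low-injury group, with a median of 0.77. At least 1 was reached by 6 and 5 genes, against 4.63% and 3.7% of 13305 genes. Those 13305 were expressed genes of all 4 tables, while Reg3g, Prss22 and Muc5ac were not. Reg3g and Prss22 are among the genes counted as reaching 1 in both groups, so these counts and shares are not like for like. In the low-injury group Bpifa1 was at 6.71 ± 1.49, Prss22 at 4.55 ± 1.42, Pigr at -0.65 ± 0.43 and Scgb3a2 at -0.04 ± 0.27. The values of Bpifa1 and Prss22 rest on levels near the floor in Cldn4 KO no VILI, 0.417 and 0.739 CPM. Prss22 was near or under the floor in WT no VILI too, at 0.264 CPM. Sex cannot be told apart from ventilation in these sums either.

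The precision of the genes differed. In Cldn4 KO VILIhigh against WT VILI, the approximate standard error of Bpifa1 was 0.71, where genes within 0.5 log2 CPM of it had a median of 0.21, a ratio of 3.30. That ratio was 2.61 for Scgb3a1, 2.17 for Muc5b, 2.12 for Prss22, 2.08 for Bpifb1 and 1.74 for Reg3g. For Lcn2, Scgb3a2, Muc5ac and Pigr it lay between 0.96 and 1.29. The 5 genes with the largest fold changes in high-injury lungs all had ratios of 1.74 or more. In the other deposited tables the ratios of these 5 genes lay between 1.31 and 3.29, so ratios above 1 were not particular to high injury.

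**Figure D3:**
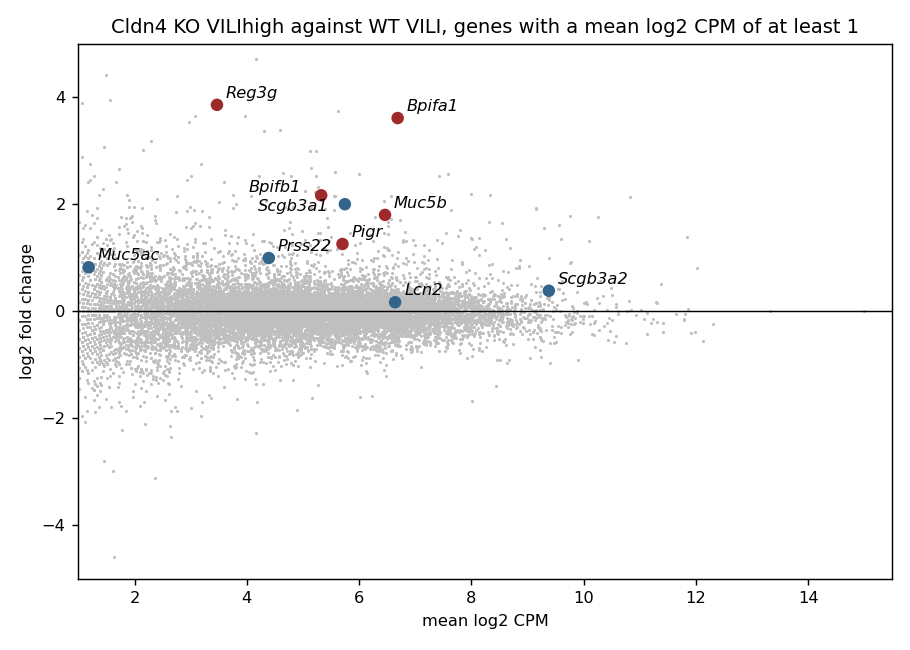
Log2 fold change against mean log2 CPM in the authors' deposited table of Cldn4 KO VILIhigh against WT VILI, for 13724 genes in grey, of which 2 lie beyond the axis of 5. The 10 genes are named, red where called and blue where not; Reg3g and Bpifa1 stand near the top of the cloud at 3.86 and 3.61, and Lcn2 lies within it at 0.17.

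Other genes of the same functions were listed without regard to how they moved in these tables, although with earlier results known. Of 29 further antimicrobial genes measured, 3 were higher in Cldn4 KO VILIhigh against WT VILI and none lower in the authors' deposited table (edgeR). They were Ltf, an iron-binding protein of neutrophils and glands (1.95), the chitinase Chia1 (1.24) and Saa3, an acute phase protein named after its value was seen (2.75, at 4.04 CPM). Their median was 0.27 over the 16 expressed genes. The constitutive airway products Slpi and Wfdc2, named after their values were seen, stood at 42.1 to 50.0 and 394 to 496 CPM over the 5 groups and were not called in any authors' deposited table (edgeR). In WT VILI against WT no VILI, 5 of the 29 were higher, with the smallest p for the neutrophil proteins S100a8 (2.30) and S100a9 (1.86), and none was lower in the authors' deposited table (edgeR). In Cldn4 KO no VILI against WT no VILI the authors' deposited table gave 2 higher and none lower (edgeR), the chemokine Ccl20 at 2.23 and Saa3 at 1.77, and in Cldn4 KO VILIlow against WT VILI 2 higher and none lower, Chia1 at 1.07 and Saa3 at 2.45.

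Of 25 further genes for mucins and mucus formation, 1 was higher in Cldn4 KO VILIhigh against WT VILI in the authors' deposited table (edgeR), the membrane mucin Muc20 at 0.95, and none was lower. Their median was 0.29 over the 11 expressed genes. Goblet cell genes named after their values were seen were low throughout: Spdef, the goblet cell factor, lay between 1.30 and 2.06 CPM, Agr2 between 0.211 and 1.58 CPM and Clca1 between 0.0392 and 1.70 CPM. In WT VILI against WT no VILI 1 gene was called, the membrane mucin Muc13, which passed from 0.0231 CPM, under the floor, to 3.82 CPM (authors' deposited table, edgeR adjusted p = 5.45e-09). In Cldn4 KO no VILI against WT no VILI the authors' deposited table had Muc1 higher at 0.46 and Muc6 lower at -0.92 (edgeR). None of the 25 was called in Cldn4 KO VILIlow against WT VILI (authors' deposited table, edgeR; 1 higher and 0 lower with an unadjusted p under 0.05).

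Of 27 other epithelial serine proteases and inhibitors measured, 1 was higher in WT VILI against WT no VILI, the inhibitor Serpina3n at 0.98, and 1 lower, the channel-activating protease Prss8 at -0.62 (authors' deposited table, edgeR). In Cldn4 KO VILIhigh against WT VILI 1 was called, the plasminogen activator Plau, higher by 2.54 (authors' deposited table, edgeR adjusted p = 8.18e-15). Plau was also higher in Cldn4 KO no VILI against WT no VILI, at 1.1, with Prss12 at 0.77 (authors' deposited table, edgeR). Of 14 further lipocalins and 7 further secretoglobins, none was called in any authors' deposited table (edgeR), and there the high-injury comparison had 1 lipocalin and 0 secretoglobins with an unadjusted p under 0.05. Only 4 of these lipocalins and 2 of these secretoglobins were expressed genes in each table. Scgb1a1, with its deposited fold changes of exactly 0, was 1 of the 2, so no lack of response is read from these counts.

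Cytokines, receptors and factors known to act on these genes were read beside them. Of 31 listed, 8 were higher in Cldn4 KO VILIhigh against WT VILI and none lower in the authors' deposited table (edgeR), with Socs3, a feedback inhibitor induced by STAT3, at 2.18 and Tnf at 2.01. In WT VILI against WT no VILI 13 were higher and 1 lower, Il10rb, a receptor chain for IL-22, at -0.52, with Areg at 4.44 and Il6 at 4.65 leading the rises (authors' deposited table, edgeR). In Cldn4 KO VILIlow against WT VILI Socs3 alone was called, at 1.52, and in Cldn4 KO no VILI against WT no VILI none was (authors' deposited tables, edgeR; 2 higher and 1 lower with an unadjusted p under 0.05 in the latter). No value here links these cytokines to the 10 genes.

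Markers of the cells that make these proteins were set beside the rise in high-injury lungs. Of 14 club cell markers measured, 0 were higher and 1, Fmo2, lower at -0.90 in Cldn4 KO VILIhigh against WT VILI in the authors' deposited table (edgeR; 1 higher with an unadjusted p under 0.05). Their summed level without Scgb1a1 was 9215 CPM in WT VILI, 9318 in Cldn4 KO VILIlow and 9179 in Cldn4 KO VILIhigh, and 9910 and 9964 CPM in the unventilated WT and KO groups. This sum rests on a few abundant genes: high-injury minus low-injury knockout, with no test, was above 0 for 7 and below 0 for 3 of the 10 expressed club markers other than Scgb1a1, with a median of 0.42. Ciliated cell markers were called in 0 of 15 cases in that table (edgeR, 0 with an unadjusted p under 0.05). Their sums were 559, 504 and 635 CPM in the ventilated groups as ordered above. High-injury minus low-injury knockout, with no test, was above 0 for 11 and below 0 for 2 of 13 expressed ciliated markers. The median of these differences was 0.44. The sum of the 10 genes, most of it Scgb3a2, was 793 CPM in WT VILI, 700 in Cldn4 KO VILIlow and 1465 CPM in Cldn4 KO VILIhigh.

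Basal and squamous cell markers, which belong to large airways, the trachea and the upper airway, had higher sums there too, at low levels. Of 6 basal and 6 squamous markers, 1 basal marker was an expressed gene, in the high-injury table alone. Summed over the list, basal markers stood at 6.28 CPM in WT no VILI, 5.14 in Cldn4 KO no VILI, 3.27 in WT VILI, 6.57 in Cldn4 KO VILIlow and 11.7 in Cldn4 KO VILIhigh. Squamous markers stood at 2.45, 1.62, 3.98, 4.88 and 7.64 CPM in the same order. Sums over genes near the floor carry differences of the floor itself. That floor was 0.313 CPM for both wild type groups, 0.238 for Cldn4 KO no VILI, 0.338 for Cldn4 KO VILIlow and 0.387 for Cldn4 KO VILIhigh. Krt5, the defining basal cell keratin, stood at 0.0783 CPM in WT VILI, under the floor, 0.76 in Cldn4 KO VILIlow and 2.38 in Cldn4 KO VILIhigh, and was called higher in the authors' deposited table (edgeR, adjusted p = 0.0202). It was the 1 basal marker called there, and 0 squamous markers were (edgeR, 1 with an unadjusted p under 0.05). Krt14 and Trp63, named after their values were seen, were at 0.885 and 1.08 CPM in Cldn4 KO VILIhigh and at 0.417 and 0.518 CPM in WT VILI. The share of large airway in each lung sample, and its part in the levels of Bpifa1, Bpifb1, Reg3g, Scgb3a1 and Muc5b, was not tested.

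General epithelial and immune markers moved as well. Of 10 general epithelial markers, 4 were higher in Cldn4 KO VILIhigh against WT VILI in the authors' deposited table (edgeR), among them the keratins Krt18 at 0.85 and Krt19 at 0.84 and, named after their values were seen, Krt8 at 0.74 and the epithelial factor Elf3 at 1.08, and none was lower. Their summed level was 2459 CPM in WT VILI, 2775 in Cldn4 KO VILIlow and 3521 in Cldn4 KO VILIhigh. Neutrophil markers were higher in 3 of 14 cases there, with Ltf at 1.95 and Ngp at 1.67, and plasma cell markers in 3 of 7, with Jchain at 2.54 and Derl3 at 1.96 (authors' deposited table, edgeR). Of 9 alveolar type 2 markers 2 were lower and of 7 alveolar type 1 markers none was called (authors' deposited table, edgeR; 1 higher and 1 lower with an unadjusted p under 0.05). Whether the mix of cells had a part in the 10 genes' levels was not tested.

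**Figure D4:**
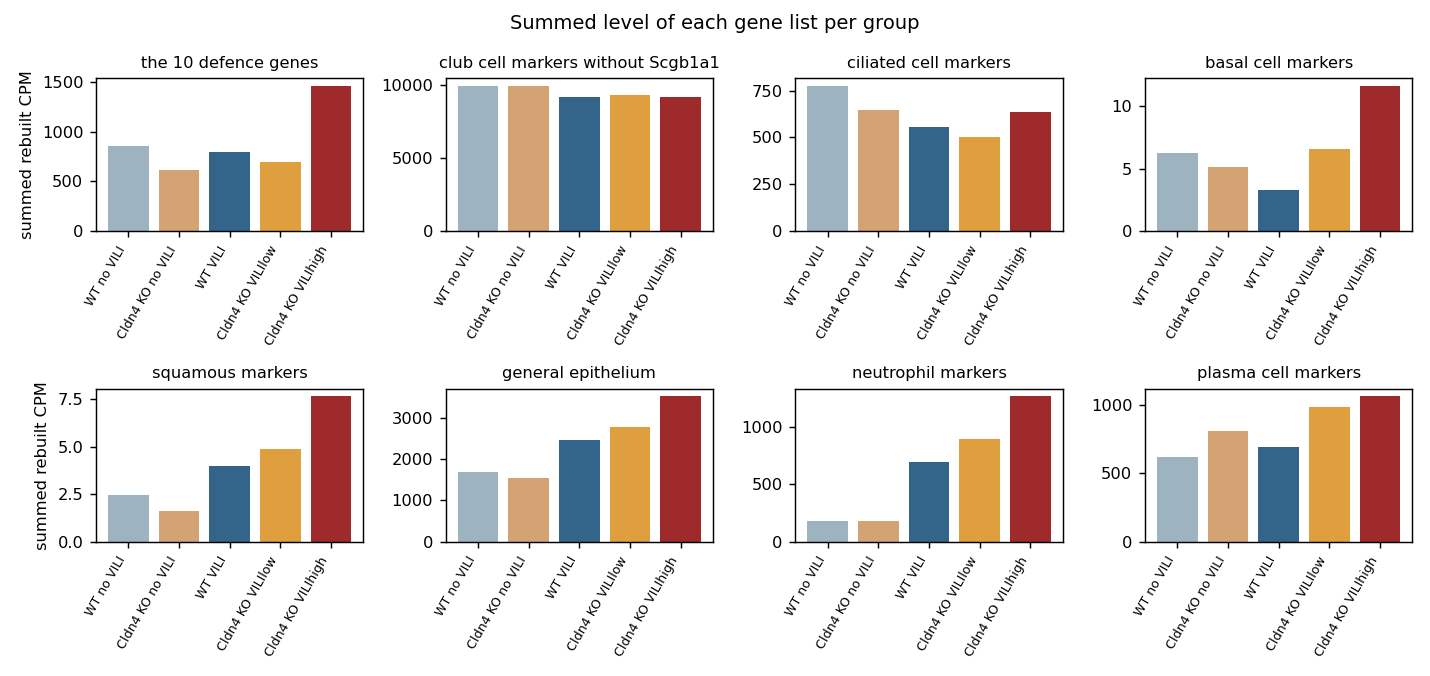
Summed rebuilt CPM of the 10 defence genes and of 7 marker lists in the 5 groups; each bar is a sum of group levels with no error and each axis starts at 0. The sums of the 10 genes, the basal markers and the squamous markers are highest in Cldn4 KO VILIhigh, at 1465, 11.7 and 7.64 CPM. Those of general epithelial, neutrophil and plasma cell markers are highest there too, at 3521, 1268 and 1063 CPM. The ciliated sum is highest in WT no VILI, at 777 CPM, and the club cell sum lies between 9179 and 9964 CPM in all groups. The basal and squamous sums hold genes near the floor, and the floor itself is highest for Cldn4 KO VILIhigh.

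In the unventilated comparison, ciliated cell markers were lower in 5 of 15 cases in Cldn4 KO no VILI against WT no VILI and higher in none in the authors' deposited table (edgeR), with Ccdc39 at -1.32 and Sntn at -1.24. Club cell markers were lower in 1 of 14, Cyp2a5 at -1.66 (authors' deposited table, edgeR), with a median of -0.09 and a sum without Scgb1a1 of 9910 CPM in WT and 9964 in KO. Of the 10 genes, 6 were below 0 in the authors' deposited table, among them Scgb3a2 and Bpifa1, called lower. Above 0 were 3, none called (Lcn2 at 0.41, Reg3g at 0.35 and Prss22 at 1.16 in the authors' deposited table), and Muc5ac was at exactly 0. The part of airway content in this difference was not tested.

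Likeness to other genes was measured as the Euclidean distance between the 4 deposited log2 fold changes, over 12723 named expressed genes. Muc5ac was left out because of its value of 0. Within the 10 genes the closest pairs were Scgb3a1 with Muc5b at 0.33, Bpifb1 with Scgb3a1 at 0.57 and Bpifb1 with Muc5b at 0.77. Scgb3a1 and Muc5b were closer to each other than either was to any gene outside the list. The 10 genes were chosen on these same fold changes, so closeness within the list is a description and no test. Outside it the nearest to Muc5b were the immediate early gene Ier2 at 0.58, the NF-kB cofactor Nfkbiz at 0.66 and Ier3 at 0.72, and the nearest to Scgb3a1 were Nfkbiz at 0.70, the chemokine Ccl22 at 0.70 and Ier2 at 0.71. For Bpifb1 they were Ccl22 at 1.05, Ctla4, an inhibitory receptor on T cells, at 1.13 and Nfkbiz at 1.18.

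The more strongly changed genes had no close match, which follows from the measure. The distance was not scaled to the size of the fold changes. Genes with large ones therefore lie far from most others, and genes with small ones lie near many. The nearest to Reg3g were the cytokines Osm at 1.69 and Lif at 1.72 and the AP-1 factor Fosl1 at 1.74. Bpifa1 was nearest to the immediate early genes Egr1 at 2.48, Fosb at 2.51 and Fos at 2.98, and Prss22 to the growth factor Areg at 1.60, the decoy receptor Il1r2 at 1.61 and Sfn at 2.02. Scgb3a2 had close matches, Lrrc26 at 0.15, Armc3 at 0.17 and Ttc29 at 0.20, as had Lcn2 with Whrn at 0.07, Col5a3 at 0.11 and Ddx28 at 0.14. For Pigr they were Lst1 at 0.40, Podnl1 at 0.41 and the angiopoietin gene Angpt2 at 0.46. These distances describe 4 values per gene that share control groups, and nothing on shared control follows from them.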

How the data were processed

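Whole lungs of 5 groups were measured by RNA sequencing. Per the submitters' processing notes, Bowtie 1.1.2, the mouse build mm9, R 3.0.1 and edgeR were used. The count method, gene filter and test settings are not given in the sources used here. The authors deposited 4 tables over 21590 genes with a log2 fold change, a mean log2 CPM, a p-value and an adjusted p-value per gene, and 0 columns per library, so depth is unknown. Per the labels, WT no VILI belongs to every table. The reference of both ventilated knockout tables was instead read as WT VILI: over 10326 genes the median absolute difference of the rebuilt reference level from WT VILI was 0.0486 and 0.0449 log2, against 0.206 and 0.204 log2 from WT no VILI.

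Levels were rebuilt by reading the mean log2 CPM as the log2 of the mean of both groups. Calls use the deposited adjusted p at 0.05, so every adjusted p is from the authors' edgeR test unless said otherwise. Approximate standard errors are the size of the fold change over the normal quantile of the deposited p. Symbols were matched through Entrez identifiers, of which 21534 were in a RefSeq table of GRCm38.p6, a build other than mm9 that was used for names, gene order and promoter sequence. What spread the deposited p-values rest on is not given in the sources used here; if it is that between the duplicates, it may be technical. The 10 genes and the 20 other lists (257 genes, 4 absent from the tables) were chosen with earlier results of these data known. Genes named are the 10, Cldn4, Xist and Ddx3y, up to 2 called genes of each list and direction with the smallest p, the 3 nearest by pattern, and, outside that rule, neighbours on the chromosome and those said to be named after their values were seen. Rebuilding, standard errors and adjustment were tested on simulated data. Levels and errors there were made with the same formulas that were then inverted. That test cannot show whether these formulas hold for the deposited values. The software was pandas 2.3.3 and numpy 2.4.6 under Python 3.11.15, with scipy 1.17.1, and matplotlib 3.10.9 for figures. Alternatives were other thresholds, adjustments, centring, rebuilding and reference groups.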

Additional observations from a re-analysis of the deposited data

How the results depend on the processing

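Of the 10 genes, the number called under Bonferroni adjustment was 1 (Scgb3a2) in Cldn4 KO no VILI, 1 (Prss22) in WT VILI and 2 (Reg3g and Bpifa1) in Cldn4 KO VILIhigh, against 2, 3 and 5 as deposited. At a threshold of 0.01 it was 1 in Cldn4 KO no VILI. Muc5b was also lost at 0.01 in Cldn4 KO VILIhigh. Cldn4 KO VILIlow kept 0 calls under these alternatives. Of the 248 other listed genes, 18 were called in unventilated knockouts, 52 in ventilated wild type, 9 in the low-injury and 27 in the high-injury table, and in that order under Bonferroni adjustment 6, 25, 4 and 11. At 0.01 the count was 10 in Cldn4 KO no VILI and 5 in Cldn4 KO VILIlow. Over all genes, 3.36%, 9.09%, 0.973% and 1.56% were called as deposited in unventilated knockouts, ventilated wild type, low-injury and high-injury knockouts. Shares over all genes at the stricter settings were not calculated. Fewer calls follow from the construction of these stricter settings. Read against WT no VILI, which the values contradict, the genes at least 1 log2 above Cldn4 KO no VILI numbered 1 and not 5 in Cldn4 KO VILIlow. Centring moved none of the 40 fold changes beyond its error or, where it has none, by 0.1 log2. Of 50 levels, 5 moved by over 1.5 times when abundance was read as a mean of logs, among them Bpifa1 in Cldn4 KO VILIhigh (360.7 CPM) and Prss22 in WT VILI (61.2 CPM). Under that reading 8 genes, not 9, were highest in Cldn4 KO VILIhigh. No paired analysis was possible because the tables hold no values per library, and for the same reason no replicate could be left out. Depth and the spread between duplicates are unknown, so levels under about 1 CPM carry no stated precision.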
